A study of Mus musculus with 12 samples.

Results

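The expression of 9 genes of the epithelial to mesenchymal transition was examined in mouse lung cells sorted as alveolar type II (ATII) cells. The mice had been treated with bleomycin or PBS, and in 12 of 12 libraries macrophage markers summed to more than ATII markers. The genes were Vim, Cdh2, Snai1, Snai2, Zeb1, Zeb2, Twist1, Acta2 and S100a4, and they were taken by gene symbol. All 9 were listed among the 23238 gene symbols of the count tables. S100a4 and Acta2 were higher in 2 of 3 libraries from bleomycin-treated mice without the p300 deletion. For both, edgeR's unadjusted p was under 0.05 but its adjusted p was 0.995, and the groups overlapped. Vim and Zeb2 were not called in any comparison, and the other transcription factors and Cdh2 were at 0 in 3 or more libraries.

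In an epithelial to mesenchymal transition, epithelial cells loosen their junctions and take on the shape, motility and matrix production of mesenchymal cells. Zinc finger repressors (Snai1, Snai2, Zeb1 and Zeb2) and the basic helix-loop-helix factor Twist1 bind E-box sequences and shut down epithelial genes such as that of E-cadherin, while N-cadherin (Cdh2), vimentin (Vim), alpha-smooth muscle actin (Acta2) and the calcium-binding protein S100a4, also called fibroblast-specific protein, are read as its products. Injured ATII cells, the surfactant-producing stem cells of the alveolus, have long been discussed as a source of such cells in pulmonary fibrosis. Vimentin and S100a4 are also made by leukocytes and fibroblasts, so that their RNA does not by itself mark a transition.

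RNA was sequenced from 12 mice, 3 in each of 4 groups, with 1 library per mouse. Con mice were given PBS and BLM mice 4 mg/kg bleomycin, a DNA-damaging drug used to model lung fibrosis, into the trachea. KO and KOBLM mice were given PBS and bleomycin in the same way and are labelled p300 knockout. In these mice a tamoxifen-dependent Cre recombinase under the Spc (Sftpc) promoter, which is active in ATII cells, deletes floxed exon 9 of Ep300, the gene of the histone acetyltransferase p300. Tamoxifen at 10 mg/kg at an age of 8 weeks is given in the labels without distinction of groups. The Con and BLM mice are called wild type or negative control in the labels, floxed Spc-p300 f/f mice in the Results of the study and C57BL/6 in its methods, and the time between bleomycin and sorting is not given in the sources used here. The cells were sorted as CD74-positive and EpCAM-positive, and the libraries were made with a QuantSeq kit, which reads the 3′ end of a transcript, so that counts do not grow with transcript length and levels can be set side by side between genes. Levels are given as CPM, read counts scaled to library size with TMM factors. Differences are log2 fold changes of edgeR's quasi-likelihood test over 13054 genes. A gene was called where its fold change exceeded 1.5 and its unadjusted p was under 0.05. P-values measure the spread between these mice.

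The libraries held between 7005005 and 11153154 counts, and 3 counts, taken as the detection floor, equalled 0.269 to 0.428 CPM of the library total, a limit for counting error only. The library with the fewest genes of each group, Con 3, BLM 3, KO 3 and KOBLM 2, held 6847 to 10246 genes with a count and the 4 largest totals, against 11139 to 13838 genes in the other 8 libraries. BLM 3 stood furthest apart, with Spearman coefficients of 0.473 and 0.478 to the other BLM libraries across the tested genes, against 0.693 to 0.889 in the other pairs within a group. In BLM 3 a list of 25 pluripotency genes had a sum of 4537.6 CPM, against 474.9 to 877.7 CPM elsewhere. Ep300 lay between 51.0 and 143.4 CPM in Con and between 103.0 and 153.5 CPM in the libraries labelled KO. It lay between 42.6 and 118.8 CPM in BLM and between 54.2 and 169.4 CPM in KOBLM. The floxed exon lies far from the 3′ end that the kit reads, so this level does not check the labels. The study itself reports the deletion from qRT-PCR of isolated ATII cells and from co-staining of lungs. As to the sorted cell type, 14 ATII markers summed to 339.2 to 2342.9 CPM, whereas 18 macrophage markers (without Lyz2, which ATII cells also express) summed to 1028.2 to 39988.4 CPM and exceeded the ATII sum in 12 of 12 libraries. The sort markers ran from 460.4 to 2247.5 CPM (Cd74) and from 2.7 to 328.7 CPM (Epcam). In sorted bulk cells, fewer cells of a type and less RNA per cell cannot be told apart.

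The promoter sequences of S100a4 and Acta2, the genes that rose, and of Snai1, which was at 0 in all libraries labelled KO, are shown because E-boxes are the sites that the repressors of the group are known to bind. Each is the stretch of 250 bases before the transcription start on the strand of the gene, 5′ to 3′, from RefSeq (GRCm38.p6). Capitals mark every match to CANNTG, the general E-box, on either strand. It was added to the search after the values were seen.
Snai1, chr2:167537945-167538194, plus strand: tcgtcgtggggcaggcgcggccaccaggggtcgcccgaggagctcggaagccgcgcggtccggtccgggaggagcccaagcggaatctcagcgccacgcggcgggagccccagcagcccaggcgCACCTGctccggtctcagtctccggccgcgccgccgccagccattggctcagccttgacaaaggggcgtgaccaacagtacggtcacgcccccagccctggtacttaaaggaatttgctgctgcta
Acta2, chr19:34255374-34255623, minus strand: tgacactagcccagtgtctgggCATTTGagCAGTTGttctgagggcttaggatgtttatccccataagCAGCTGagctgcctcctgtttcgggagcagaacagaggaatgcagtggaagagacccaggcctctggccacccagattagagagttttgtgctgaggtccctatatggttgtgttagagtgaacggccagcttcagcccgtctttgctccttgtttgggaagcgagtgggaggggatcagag
S100a4, chr3:90603520-90603769, plus strand: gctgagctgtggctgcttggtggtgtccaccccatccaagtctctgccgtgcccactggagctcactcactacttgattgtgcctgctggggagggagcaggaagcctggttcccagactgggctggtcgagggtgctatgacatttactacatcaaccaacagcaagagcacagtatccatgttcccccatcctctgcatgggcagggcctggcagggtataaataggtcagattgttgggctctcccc

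The search covered windows of 300 bases (250 before and 50 after the start), of which the table held 9 for 6 members. The core bound by Snail and Zeb proteins, CACCTG on either strand, stood in 1 of these windows, that of Snai1, at position -126 from the start, and in 20.2% of all 32851 promoters of that length. CANNTG, which includes it, was found in 2 windows, once in Snai1 and at -228, -220 and -182 in Acta2, and in 72.3% of all promoters. The S100a4 window held neither. A match is a description of the letters and not a bound site. Cdh2, Snai2 and Zeb1 have no entry in the table.

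S100a4, a calcium-binding protein gene, had the largest called log2 fold change of the group that did not rest on a group at 0. It lies on chromosome 3 from 90603771 to 90606045 (GRCm38, GENCODE M21), and the gene model Gm42674 overlaps its last exon on the same strand. Its level was 102, 99.9 and 64.4 CPM in the Con libraries and 1950, 1900 and 62.3 CPM in the BLM libraries. The libraries labelled KO held 45.3, 459 and 202 CPM, and those labelled KOBLM 539, 147 and 626 CPM. BLM 1 and BLM 2 thus lay above every library of the other 3 groups, and BLM 3 lay below every Con library on the TMM scale. Per library total BLM 3 was at 77.38 CPM, within the 68.99 to 106.73 CPM of Con, and the ranges of BLM and Con overlapped on both scales.

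From 88.6 ± 21.0 CPM in Con to 1310 ± 1080 CPM in BLM (mean ± SD, n = 3 each), S100a4 rose by 3.88 on the log2 scale (standard error 1.07). This gave edgeR p = 0.00268, or 0.995 after adjustment, and p = 0.4 in an exact two-sided permutation of the levels. With 3 libraries against 3, that permutation cannot go below 0.1. Without BLM 3, an omission chosen after seeing the data, the log2 fold change was 4.44 (standard error 0.76, adjusted p = 0.0845), and over 19 alternatives its adjusted p ran from 0.0131 with DESeq2 to 1.0. Its unadjusted p stayed under 0.05 in all 6 fits that left out 1 library of these groups.

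Between KOBLM (437 ± 255 CPM) and BLM, the log2 fold change of S100a4 was -1.58 (95% interval -3.67 to 0.51, exact permutation p = 0.4), and the groups overlapped. Without BLM 3 it was -2.14 (standard error 0.70, adjusted p = 1.0), which is past the threshold. With bleomycin in the mice labelled as p300-deleted, from 235 ± 209 CPM in KO to 437 ± 255 CPM in KOBLM, the log2 fold change was 0.89 (95% interval -1.16 to 2.95, exact permutation p = 0.3). The change with bleomycin was therefore 2.99 smaller on the log2 scale in the mice labelled as p300-deleted, given as an interaction of -2.99 (95% interval -5.94 to -0.04, adjusted p = 1.0), which passed the threshold at its edge. The interaction was -3.55 without BLM 3 (standard error 0.96, adjusted p = 1.0), but its unadjusted p was under 0.05 in 3 of the 12 fits that left out 1 library (BLM 3, KO 1 or KOBLM 3) and above it in the others. In the absence of bleomycin, KO differed from Con by a log2 fold change of 1.41 (95% interval -0.67 to 3.49, exact permutation p = 0.4), and without BLM 3 the same 1.41 was past the threshold (standard error 0.65, adjusted p = 0.982). With all 12 libraries, the ranges of neighbours in the order Con, KO, KOBLM, BLM overlapped.

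Acta2, which encodes the actin of smooth muscle cells and myofibroblasts, followed S100a4 in BLM at a lower level. The gene lies on chromosome 19 from 34241090 to 34255590 on the minus strand. Its level was 2.04, 1.73 and 11.3 CPM in Con and 72.1, 70.9 and 5.34 CPM in BLM. It was 1.91, 28.0 and 36.0 CPM in KO and 22.1, 21.2 and 18.8 CPM in KOBLM. BLM 1 and BLM 2 were again above every library of the other groups, BLM 3 lay within the range of Con, and the KOBLM libraries were close to each other, with an SD of 1.73 CPM.

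The log2 fold change of Acta2 between BLM (49.4 ± 38.2 CPM) and Con (5.04 ± 5.46 CPM) was 3.29 (95% interval 0.11 to 6.46). The edgeR p of 0.0433 became 0.995 after adjustment, the exact permutation p was 0.2, and the adjusted p lay between 0.124 and 1.0 over 19 alternatives. The call was lost when Con 1, Con 2, BLM 1 or BLM 2 was left out, with a log2 fold change of 2.88 to 4.70 over all omissions of 1 library. Without BLM 3 it was 3.82 (standard error 1.27). KOBLM (20.7 ± 1.73 CPM) differed from BLM by -1.25 (95% interval -4.20 to 1.70, exact permutation p = 0.4) and from KO (22.0 ± 17.8 CPM) by -0.08 (95% interval -2.99 to 2.82, exact permutation p = 1.0). In the absence of bleomycin, KO differed from Con by 2.12 (95% interval -0.91 to 5.15, exact permutation p = 0.3), and by 3.0, past the threshold (standard error 1.07, adjusted p = 0.89), with the 2 libraries of each group that held the most genes, a choice made after seeing the data. The interaction was -3.37 (95% interval -7.59 to 0.85) and passed the threshold without BLM 3, at -3.90 (standard error 1.66, adjusted p = 1.0). Actin genes have near-identical coding sequences, and how reads with several matches were counted is not given in the sources used here. The kit reads the 3′ end, and whether such reads affected the Acta2 level was not tested, so this level is uncertain.

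**Figure D1:**
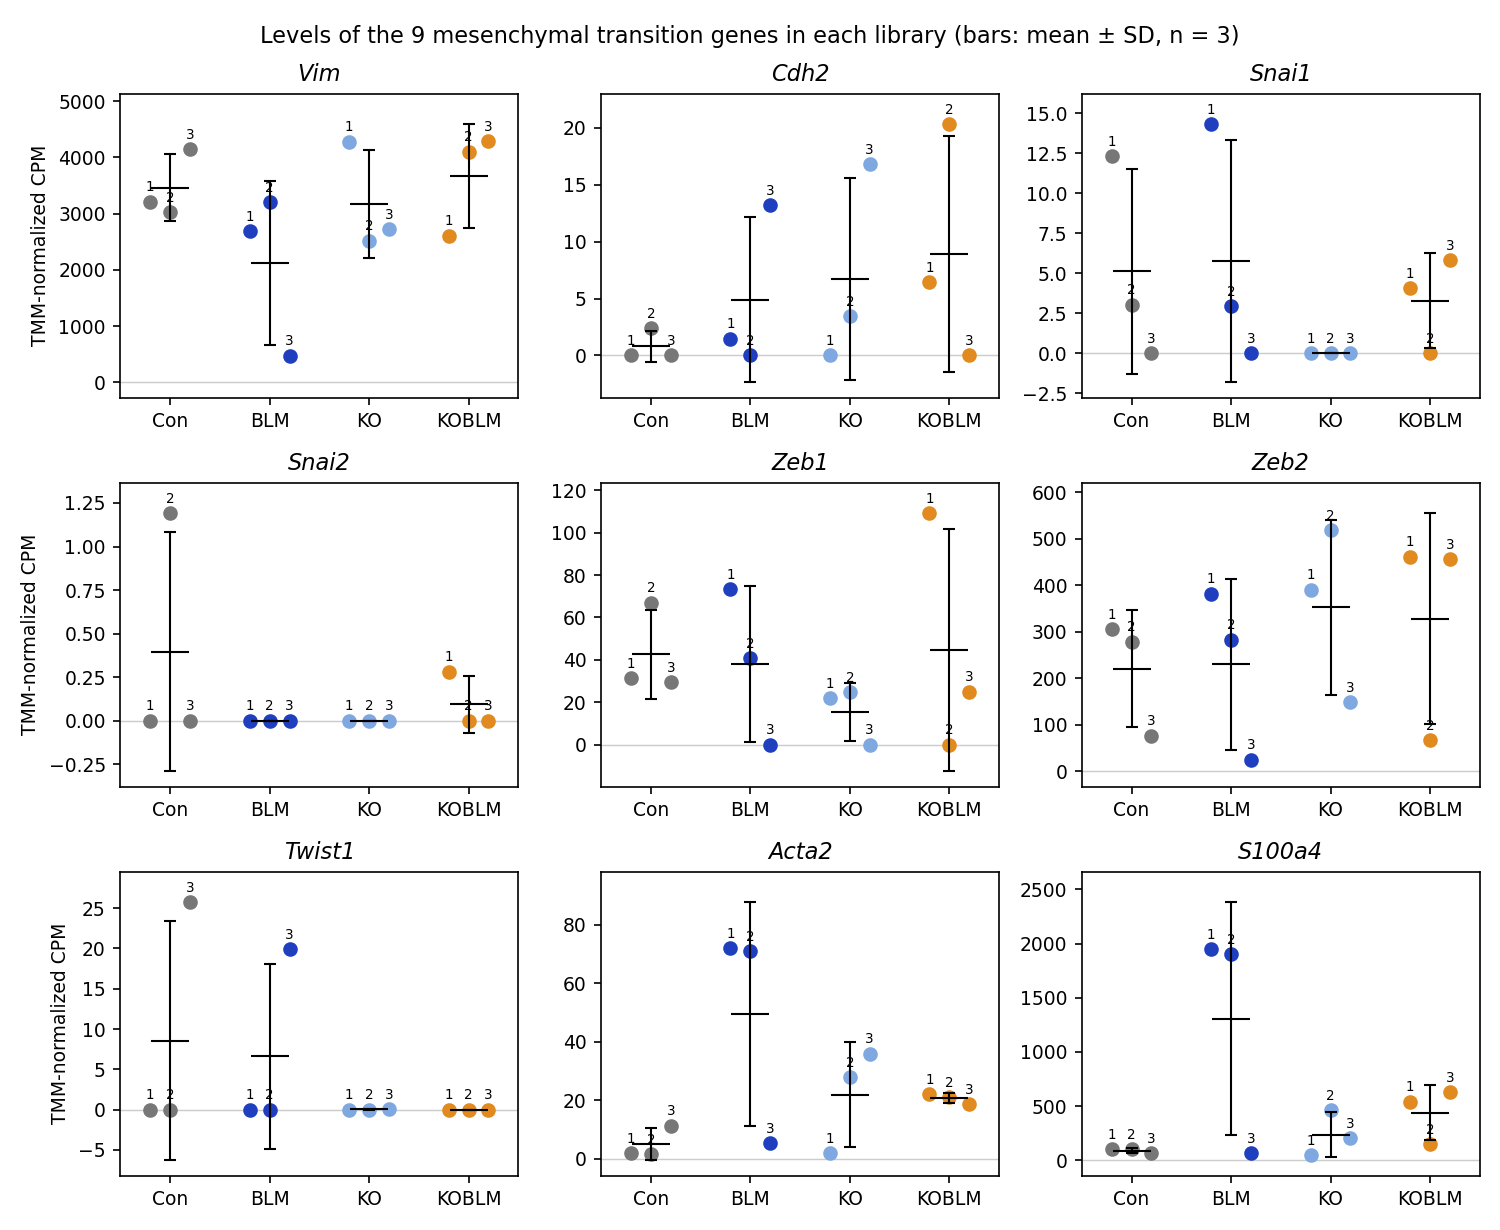
Level of each of the 9 genes (TMM-normalized CPM, linear axis) in the 3 libraries of Con, BLM, KO and KOBLM, with points numbered by replicate and bars for mean ± SD. S100a4 and Acta2 are highest in BLM 1 and BLM 2, Snai1 is at 0 in the 3 KO libraries, and Twist1 is above 1 CPM in Con 3 and BLM 3 alone.

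Vim encodes vimentin, the intermediate filament protein of mesenchymal cells and leukocytes, and was the most abundant gene of the group in each of the 4 groups. Its level was 3210, 3030 and 4150 CPM in Con, 2690, 3200 and 470 CPM in BLM, 4280, 2520 and 2720 CPM in KO, and 2610, 4100 and 4290 CPM in KOBLM. Apart from BLM 3, all libraries lay between 2520 and 4290 CPM and the groups overlapped. The log2 fold change was -0.71 between BLM and Con (95% interval -1.91 to 0.49, exact permutation p = 0.2) and -0.23 without BLM 3 (standard error 0.37). It was 0.79 between KOBLM and BLM (95% interval -0.41 to 1.99), -0.13 between KO and Con (95% interval -1.32 to 1.07) and 0.21 between KOBLM and KO (95% interval -0.99 to 1.40). None of these passed the threshold.

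Zeb2 was the most abundant of the 5 transcription factors and the only one above the floor in every library. Its level was 306, 279 and 76.1 CPM in Con, 382, 283 and 25.0 CPM in BLM, 391, 519 and 148 CPM in KO, and 462, 66.7 and 456 CPM in KOBLM. In each group the low value belonged to the library with the fewest genes, 25.0 to 148 CPM in those 4 libraries and 279 to 519 CPM in the other 8. The log2 fold changes were 0.06 between BLM and Con (95% interval -1.86 to 1.98), 0.51 between KOBLM and BLM (95% interval -1.41 to 2.44), 0.68 between KO and Con (95% interval -1.25 to 2.60) and -0.10 between KOBLM and KO (95% interval -2.02 to 1.81), none past the threshold. With the 2 libraries of each group that held the most genes, they were 0.15, 0.51, 0.66 and 0.00, with standard errors of 0.33.

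Zeb1, a close relative of Zeb2, was lower in level. It was 31.3, 66.9 and 29.6 CPM in Con, 73.4, 40.9 and 0 CPM in BLM, 21.9, 24.7 and 0 CPM in KO, and 109, 0 and 25.1 CPM in KOBLM. Its 3 values of 0 fell in BLM 3, KO 3 and KOBLM 2, which are libraries with the fewest genes. All KO libraries lay below all Con libraries, the one case in which groups of a comparison did not overlap among the 9 genes, although the log2 fold change of -1.45 did not pass the threshold (95% interval -6.10 to 3.19, exact permutation p = 0.1, the smallest possible). Over all tested genes, 9.09% did not overlap between KO and Con. The shares were 16.0% between BLM and Con, 10.8% between KOBLM and BLM and 6.86% between KOBLM and KO, where 0 of the 9 genes did so. Zeb1 was not called in any comparison.

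Snai1, whose product Snail represses E-cadherin, was at 12.3, 3.03 and 0 CPM in Con (97, 28 and 0 counts), 14.3, 2.93 and 0 CPM in BLM, and 4.06, 0 and 5.82 CPM in KOBLM. It had 0 counts in all 3 KO libraries. The 4 libraries with the fewest genes also had 0 counts, so that KO 1 and KO 2 were the only other libraries without it. With counting error alone considered and a floor of 3 counts in each KO library, Snai1 in KO was at least 14.5-fold below the Con mean of 5.13 CPM. That mean includes Con 3 at 0, so the groups overlapped. The edgeR p was 0.049, or 1.0 after adjustment, and the exact permutation p was 0.4. This call at the edge of the threshold was lost when Con 1, Con 2 or any KO library was left out. Without Con 1 the bound was at least 4.28-fold. None of the bounds given for Snai1 covers the spread between libraries. The KOBLM mean of 3.29 CPM was at least 9.30-fold above KO (edgeR p = 0.0581, exact permutation p = 0.4), and at least 5.74-fold without KOBLM 3. This difference was past the threshold with DESeq2 and without BLM 3 or KOBLM 2, with adjusted p of 0.902 to 1.0 over 18 alternatives. The BLM and Con ranges overlapped, with a log2 fold change of 0.16 (95% interval -6.38 to 6.70).

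The other Snail gene, Snai2 (Slug), was almost undetected, with 11 counts in Con 2 (1.19 CPM), 2 counts in KOBLM 1 and 0 in the other 10 libraries. Twist1, a factor of mesoderm development, had 292 counts in Con 3 (25.7 CPM), 275 counts in BLM 3 (19.9 CPM), 1 count in KO 3 and 0 counts in the other 9 libraries. Both libraries with a Twist1 level above the floor are among the 4 with the fewest genes. Neither Snai2 nor Twist1 passed the filter on low counts, and neither was tested. Cdh2, the gene of N-cadherin, was above the floor in 7 of 12 libraries, at 2.38 CPM in Con 2, at 1.46 and 13.2 CPM in BLM 1 and BLM 3, at 3.46 and 16.8 CPM in KO 2 and KO 3, and at 6.44 and 20.3 CPM in KOBLM 1 and KOBLM 2. Its 3 highest values fell in BLM 3, KO 3 and KOBLM 2, the libraries in which Zeb1 was at 0. Its log2 fold changes did not pass the threshold in any comparison, and the interval between BLM and Con ran from -4.15 to 9.36.

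In all, 7 of the 9 genes passed the filter. Between BLM and Con, 2 of these 7, S100a4 and Acta2, were called higher, where 4.27% of all tested genes were called. The median log2 fold change of the 7 was 0.16, beside -0.08 over all tested genes. Between KOBLM and BLM, 0 of 7 were called (3.16% of all tested genes), and 1 of 7, Snai1, was lower in KO than in Con (1.44%). Between KOBLM and KO, 0 of 7 were called (1.69%), and S100a4 alone passed for the interaction (2.82%). With an adjusted p under 0.05, edgeR called none of the 9 genes and 0 of the 13054 genes in any of these comparisons, against 558, 413, 188, 221 and 368 genes at an unadjusted p under 0.05. DESeq2 gave 114, 78, 80, 57 and 85 genes with an adjusted p under 0.05. BLM against Con and KOBLM against BLM share the BLM libraries, and BLM against Con and KO against Con share the Con libraries.

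**Figure D2:**
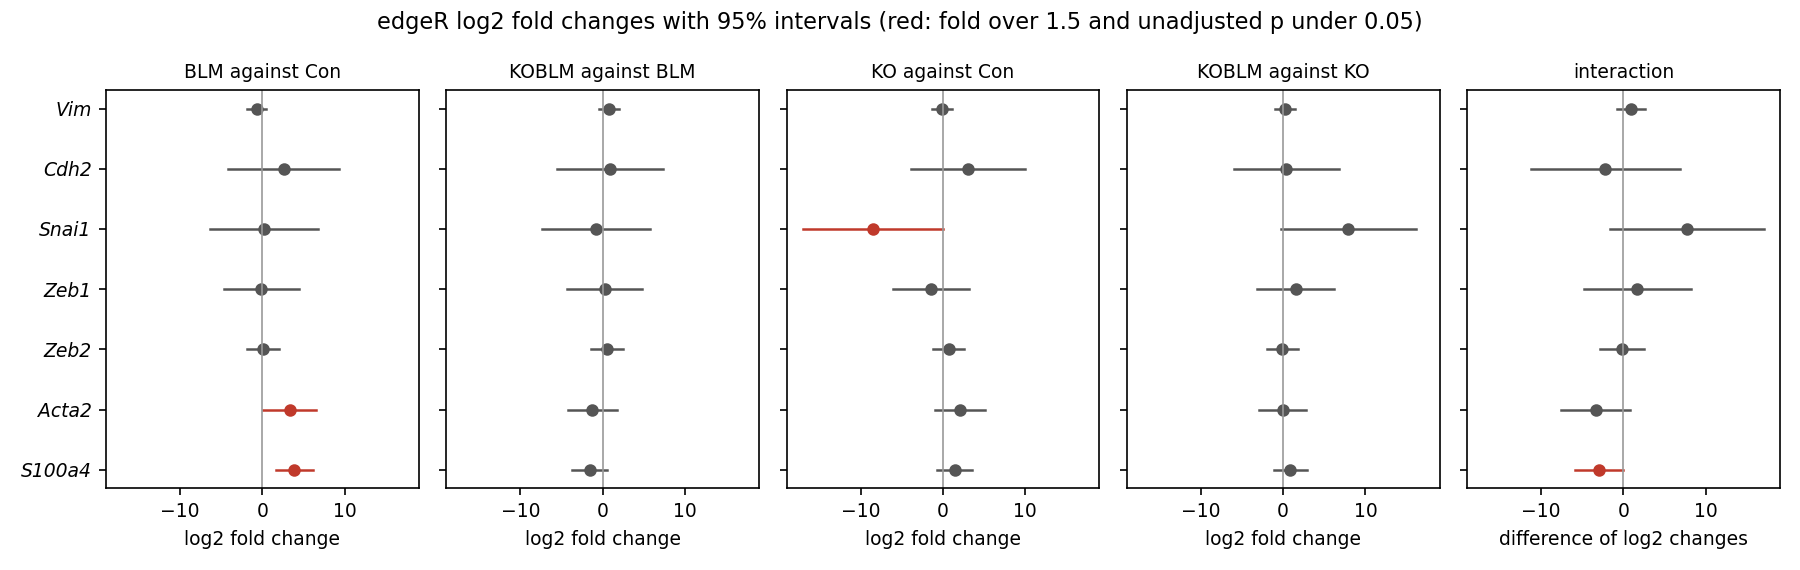
Log2 fold changes with 95% intervals (horizontal axis) of the 7 tested genes in 4 comparisons, and the interaction as the difference between the log2 changes with bleomycin, with calls in red. The intervals of S100a4 (1.59 to 6.17) and Acta2 (0.11 to 6.46) lie above 0 in BLM against Con, those of Snai1 in KO against Con and of S100a4 for the interaction end just below 0, and the others include 0.

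Of 43 further gene symbols of the mesenchymal program (matrix proteins, TGF-beta ligands and receptors, Smads, integrins, other factors), 42 were listed and 39 tested. The symbol not listed, Ccn2, is another name of the listed gene Ctgf. Twist2 was at 0 in all libraries. Between BLM and Con, 6 rose and 2 fell, 20.5% of the 39 beside 4.27% of all tested genes, and the median log2 fold change of the 39 was 0.92 beside -0.08 over all genes. Fn1, which encodes fibronectin, rose from 363, 260 and 396 CPM in Con to 1350, 1060 and 433 CPM in BLM (log2 fold change 1.48, standard error 0.59). Sparc, a collagen-binding matrix protein, rose by 2.45 on the log2 scale (standard error 0.86), with 757 CPM in BLM 3 as its highest value. Vcan, the gene of the proteoglycan versican, went from 0.382, 3.89 and 11.7 CPM to 254, 146 and 80.2 CPM (log2 fold change 4.90, standard error 1.76). Unlike S100a4 and Acta2, Vcan was therefore above every Con library in all 3 BLM libraries. The matrix protein gene Tnc was at 0 in Con and at 9.18, 24.5 and 149 CPM in BLM, and the ligand gene Wnt5a at 0 and at 6.12, 8.65 and 31.2 CPM, and both were called. Ncam1, a neural adhesion gene, passed through BLM 3 (152 CPM, against 3.52 and 7.72 CPM in BLM 2 and BLM 1) and was not called without it.

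The members of this list that fell in BLM were surface receptors that leukocytes also express. Cd44, the hyaluronan receptor and the most abundant of the list, fell from 3180, 2970 and 3770 CPM in Con to 778, 1290 and 52.3 CPM in BLM (log2 fold change -2.23, standard error 0.77). It was 2130, 2580 and 1900 CPM in KOBLM, higher than in BLM by 1.64 on the log2 scale (standard error 0.75). Axl, a receptor tyrosine kinase, fell from 1360, 1250 and 984 CPM to 202, 423 and 281 CPM (log2 fold change -1.99, standard error 0.56). It was 391, 1160 and 815 CPM in KOBLM, higher than in BLM by 1.38 on the log2 scale (standard error 0.55), and passed for the interaction at 1.66 (standard error 0.77). All adjusted p in these lists were between 0.995 and 1.0. Between KOBLM and BLM, 4 of 39 were called (10.3%, beside 3.16% of all tested genes), Axl and Cd44 upward and Hmga2 and Tgfb3 downward. Hmga2 and Tgfb3 had their highest values in BLM 3 (85.6 and 38.2 CPM) and were not called without it. Itgb6 was the 1 gene called between KO and Con (0, 7.03 and 31.6 CPM in Con and 0 in KO), beside 1.44% of all tested genes. Tnc and Tpm1 were higher in KOBLM than in KO, and Wnt5a was lower for the interaction. Without BLM 3, 7 of 40 were called between BLM and Con, the same genes except Ncam1, where 5.45% of all genes were. Between KOBLM and BLM, Ets1 (higher) and Vcan (lower) then took the place of Hmga2 and Tgfb3 among the 4 called, and KO against Con, KOBLM against KO and the interaction gave 3, 6 and 5 of 40, beside 2.51%, 3.07% and 4.63% of all genes.

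Of 26 epithelial counterparts (E-cadherin, keratins, claudins, desmosomal genes and their regulators), 20 were tested, and the most abundant were Krt19, Cdh1, Jup and Epcam. Cdh1, the target of the Snail and Zeb repressors, was not called between these groups, at 142, 158 and 112 CPM in Con and 137, 295 and 413 CPM in BLM (log2 fold change 1.04, standard error 0.67). It was lower in KOBLM than in BLM, at 69.6, 152 and 71.7 CPM (log2 fold change -1.53, standard error 0.67). Krt19, a keratin of simple epithelia, fell from 473, 432 and 428 CPM in Con to 11.7, 19.5 and 0 CPM in BLM (log2 fold change -5.42, standard error 1.39). It was 161, 308 and 47.5 CPM in KOBLM, higher than in BLM by 4.05 on the log2 scale (standard error 1.30), with an interaction of 4.89 (standard error 1.71). Jup, the gene of plakoglobin, moved the same way, with a log2 fold change of -1.87 (standard error 0.75) in BLM against Con, 1.59 (standard error 0.74) in KOBLM against BLM and an interaction of 2.37 (standard error 1.04). The tight junction gene Cldn4 was found only in BLM, at 8.30, 19.4 and 14.2 CPM, and was at 0 in the other 9 libraries. The called genes were thus 3 of 20 between BLM and Con and 4 of 20 between KOBLM and BLM, beside 4.27% and 3.16% of all tested genes. Without BLM 3 they were 3 of 22 (the same genes) and 2 of 22 (Krt19 and Cldn4), beside 5.45% and 3.34%. KO against Con gave 0 of 20 with edgeR, beside 1.44% of all tested genes. Without BLM 3 it gave 2 of 22 (Cldn18 and Dsp, both lower in KO), beside 2.51%. Dsp and Grhl2, each present in few libraries, were higher in KOBLM than in KO.

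Markers of other cell types moved with these groups. The summed level of 20 fibroblast markers (Col1a2, Col1a1, Col3a1 and Inmt the highest) was 233.8 to 633.1 CPM in Con and 1226.8 to 2154.0 CPM in BLM, 113.7 to 460.1 CPM in KO and 216.3 to 858.5 CPM in KOBLM. All 3 BLM libraries lay above all others, BLM 3 included at 1226.8 CPM, the library in which S100a4 and Acta2 were at 62.3 and 5.34 CPM. In BLM 3, however, the sum came from collagen genes alone. The fibroblast markers that are not collagens, Inmt among them, were at 0 there. Of 17 fibroblast markers tested, Col1a2 and Col3a1 rose in BLM, where 4.27% of all tested genes were called. The sum of 14 smooth muscle and pericyte markers overlapped between Con (24.1 to 70.7 CPM) and BLM (47.0 to 58.1 CPM) and was 0.6 to 20.5 CPM in KO, with 0 of 10 called between BLM and Con. Macrophage markers summed to 12146.1 to 26034.4 CPM in Con, 1037.2 to 11506.0 CPM in BLM, 11428.7 to 41370.5 CPM in KO and 9435.3 to 22660.1 CPM in KOBLM. Of 19 macrophage markers, C1qa, C1qb and C1qc rose and Ear2, Itgax, Mrc1 and Ptprc fell between Con and BLM. These were 7 of 19 in all, beside 4.27% of all tested genes. Without BLM 3, 11 of 19 were called, beside 5.45% of all genes. With all libraries, 5 of 19 were called for the interaction, beside 2.82% of all tested genes. C1qa, C1qb and C1qc were lower there, and Itgax and Ptprc higher. BLM 3 had both the lowest macrophage sum and the lowest Vim and Zeb2 levels. ATII markers summed to 1050.2 to 2342.9 CPM in Con and 519.9 to 628.3 CPM in BLM, where Sftpc, Sftpa1 and Cxcl15 fell, and to 339.2 to 989.8 CPM in KO and 636.7 to 904.9 CPM in KOBLM. Single genes carried some of these sums. The highest ATII marker in BLM 3 was Etv5, with 4424 counts against 822 for Sftpc. In KOBLM 3 it was Lyz1, with 4065 counts against 5 for Sftpc and 0 for Sftpb. Endothelial markers summed to 1482.5 to 2240.2 CPM in Con, 331.9 to 1566.6 CPM in BLM, 205.7 to 1025.0 CPM in KO and 680.6 to 3205.3 CPM in KOBLM. All KO libraries lay below all Con libraries, as for Zeb1 and for the ATII and the smooth muscle and pericyte sums. The median log2 fold change of the endothelial markers was -1.74 between KO and Con. In that comparison edgeR called 0 of 15, beside 1.44% of all tested genes. Without BLM 3 it called 1 (Ptprb, lower in KO), beside 2.51%. Lymphocyte markers summed to 32.6 to 93.1 CPM in Con and 0 to 26.5 CPM in BLM. Of these, 3 of 11 were called (Cd79a, Cd8a and Ms4a1, lower in BLM), beside 4.27% of all tested genes. Without BLM 3, 0 of 11 were called, beside 5.45%. In KO and KOBLM the lymphocyte sums were 6.8 to 108.9 and 37.1 to 67.8 CPM. Of 6 mesothelial markers, Wt1 was at 0 in all libraries and 5 were over the floor in some library, with sums of at most 17.7 CPM. The part of these cell types in the levels of S100a4, Acta2, Vim, Zeb1, Zeb2 and Snai1 was not tested.

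**Figure D3:**
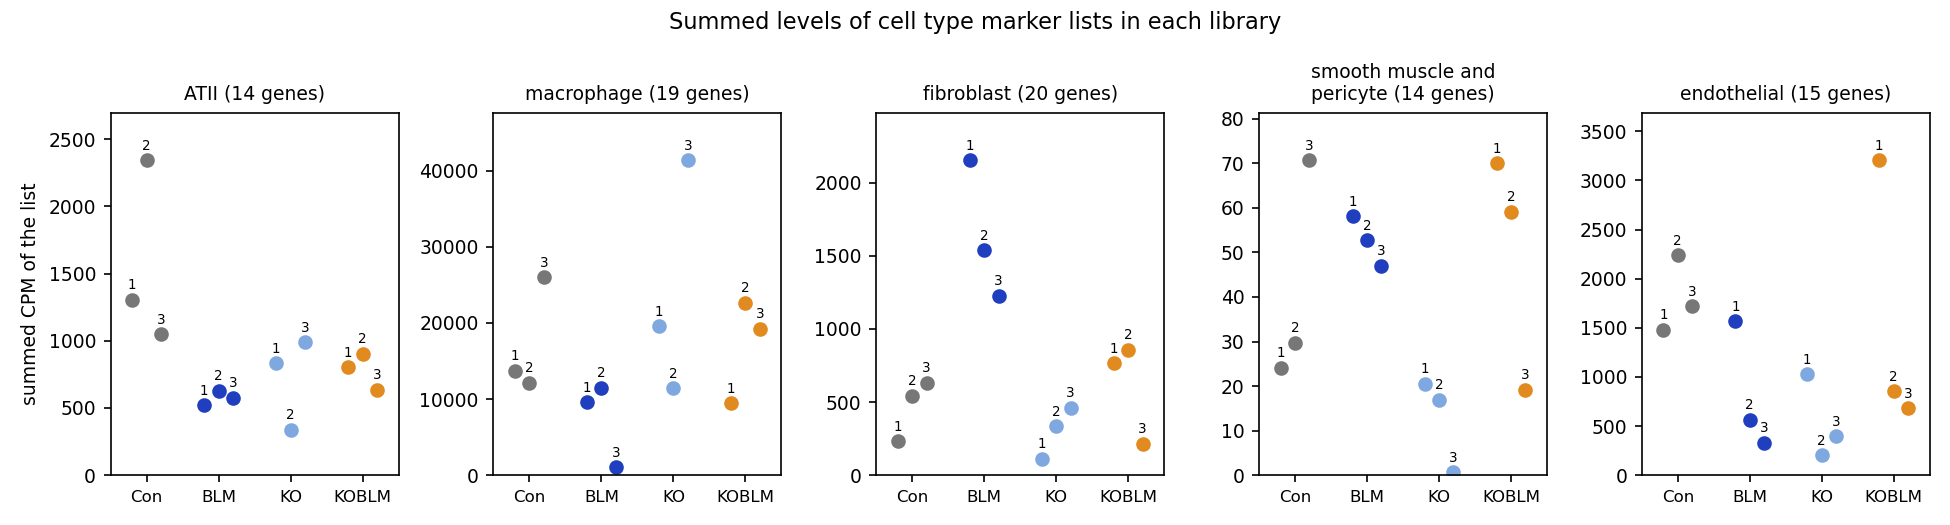
Summed level (CPM, linear axes from 0, each panel with its own scale) of 5 cell type marker lists in the 3 libraries of each group, numbered by replicate. Fibroblast markers are highest in the BLM libraries (1226.8 to 2154.0 CPM), macrophage markers lowest in BLM 3 (1037.2 CPM), and ATII markers highest in Con.

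The genes most like each member over the 12 libraries were sought among 8912 genes with a mean of at least 10 CPM, by the root mean square difference of log2 CPM after each gene was centred on its own mean. For S100a4, whose own deviation was 1.80, the nearest were S100a6, another gene of the S100 family (0.57), Srgn (0.83) and Ltb4r1 (0.89), and Acta2 stood in place 8 (1.07). For Acta2, with a deviation of 1.81, they were Il1r2 (0.75), Ccl9 (0.80) and S100a6 (0.88), and S100a4 stood in place 5 (1.07). Vim, with a deviation of 0.82, lay nearest to Cd53 (0.22), Arpc5 (0.24) and Arpc2 (0.25), and Zeb2, with 1.32, to Ist1 (0.39), Pcyt1a (0.42) and Unc93b1 (0.45). In the order of distance from S100a4, Vim and Zeb2 stood in places 1540 and 314. These distances are descriptions, and the points share their libraries and depth.

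**Figure D4:**
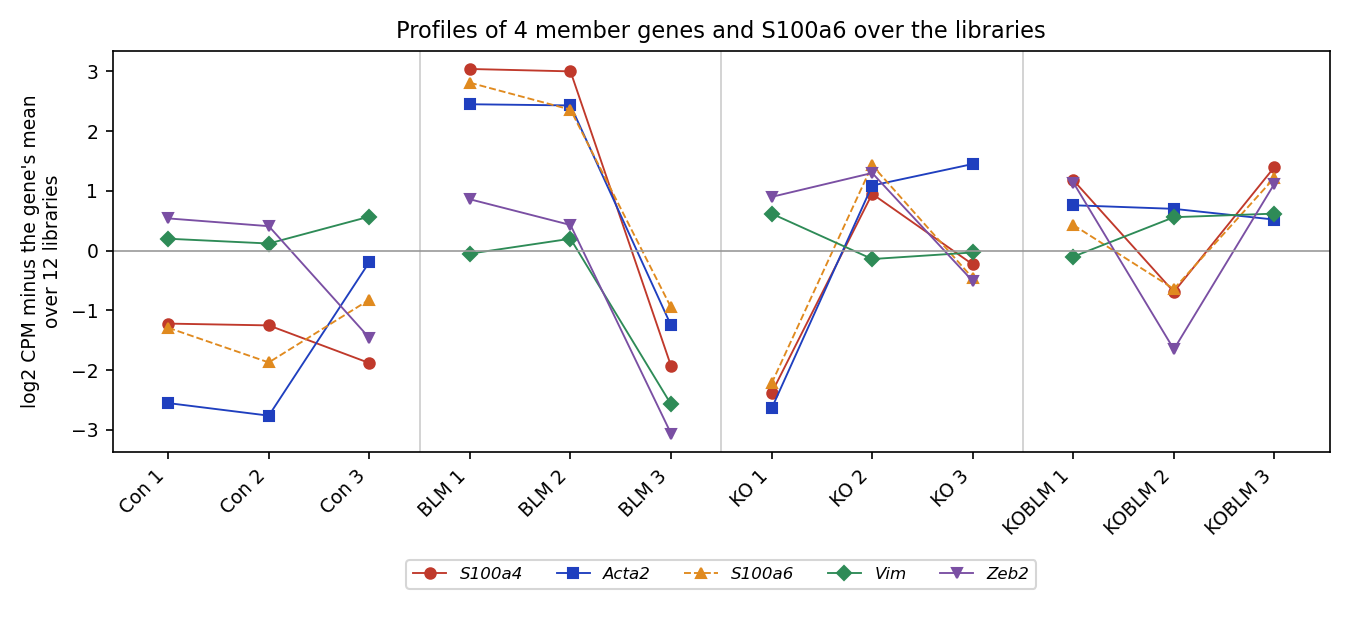
Log2 CPM of S100a4, Acta2, Vim, Zeb2 and S100a6 in each library minus the mean of the gene over the 12 libraries, with lines joining libraries of the same group. S100a4, Acta2 and S100a6 stand 2.36 to 3.04 above their means in BLM 1 and BLM 2, and Vim (-2.57) and Zeb2 (-3.06) have their lowest values in BLM 3.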

How the data were processed

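The authors deposited raw read counts per gene symbol, not normalized, for each of 12 libraries. Their processing notes name Bowtie2, edgeR and the mouse build mm10 without versions, and strand and multi-mapping settings are not given in the sources used here. The files hold 23282 entries, of which 0 lack a name. Entries of the 35 symbols listed more than once (79 entries, no member among them) were summed. The totals, 7005005 to 11153154 counts, set the detection floor of 3 counts.

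Genes were filtered with filterByExpr (minimum count 10, minimum total 15), scaled by TMM (factors 0.84 to 1.26) and fitted with edgeR 4.0.16 in R 4.3.3 in a single model of the 4 groups (8 residual degrees of freedom, common dispersion 2.08). The pairs differing in 1 factor and the interaction were tested two-sided, with Benjamini-Hochberg adjustment over all tested genes. Levels of single genes were compared by exact permutation. A bound sets a group without a library over the floor at 3 counts per library, and covers counting error only. Distances used a prior count of 2. DESeq2 1.42.0, other scalings, no filter, a replicate block, models of the groups compared and omissions were alternatives. The edgeR steps were tested on simulated data. Python 3.11.15 with pandas 2.3.3, numpy 2.4.6, scipy 1.17.1 and matplotlib 3.10.9 was used.

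Named genes are the 9 members, called and 4 highest genes of each list, defining markers at 0, and the 3 nearest genes. The members and lists were chosen with earlier results of these data known. Deviations of same-numbered libraries of different groups were not correlated above 0.1 (0 of 18 pairs). With 3 libraries per group this cannot decide whether the replicate numbers pair them. Con 3, BLM 3 and KO 3 were each the library of their group with the fewest genes. Positions come from GENCODE M21 (GRCm38).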

Additional observations from a re-analysis of the deposited data

Results flagged for a closer look

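The log2 change of S100a4 with bleomycin was smaller in the libraries labelled as p300-deleted than in the others, by an interaction of -2.99 (95% interval -5.94 to -0.04, adjusted p = 1.0), which was a test of the difference itself. The direction was the same in all 12 fits that left out 1 library, between -3.55 and -2.08, and the unadjusted p was under 0.05 in 3 of them, those without BLM 3, KO 1 or KOBLM 3. Beside it, the fibroblast marker sum was higher in BLM (1226.8 to 2154.0 CPM) than in KOBLM (216.3 to 858.5 CPM). In BLM 3 that sum came from collagen genes alone. Of 19 macrophage markers, 5 were called for the interaction (26.3%, beside 2.82% of all tested genes). C1qa, C1qb and C1qc were lower, at -6.15, -5.96 and -6.66, and Itgax and Ptprc were higher, at 2.07 and 2.01. C1qa was at 10.2, 23.6 and 0 CPM in Con and at 970, 1060 and 13.1 CPM in BLM. The part of fibroblasts and macrophages was not tested.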

How the results depend on the processing

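The 35 log2 fold changes of the 7 tested genes gave 488 values under other settings, of which 410 kept direction and side of the threshold, 25 lost a call, 12 gained one and 41 changed sign. With an adjusted p under 0.05, edgeR called 0 of the 9 genes in BLM against Con, KO against Con and the interaction, whereas DESeq2 gave S100a4 an adjusted p of 0.0131 in BLM against Con. Omissions below are of libraries of the groups compared. Percentages in what follows are the shares of all tested genes called under the same setting. Leaving out BLM 3 also changed comparisons that do not hold it. KO against Con then gave 2 genes (S100a4 and Snai1, 2.51%) and KOBLM against KO 1 (Snai1, 3.07%). In BLM against Con, 1 gene, S100a4, was called with library size alone (4.76%), no filter (4.41%), the replicate block (3.02%) and only the groups compared (3.28%). With a library left out, 1 to 2 were called (2.08% to 5.45%). KOBLM against BLM gave 2 genes with no filter (S100a4 and Twist1, 3.69%). It gave 1 (S100a4, 5.72%) with the 2 libraries per group that held the most genes. With a library left out it gave 0 to 1 (1 without BLM 3, 3.34%). KO against Con gave 0 with no filter (1.31%), the replicate block (0.766%) or only the groups compared (2.04%). It gave 2 (Acta2 and Snai1, 4.28%) with 2 libraries per group, and 0 to 1 with a library left out (0.627% to 3.2%). KOBLM against KO gave 1 (Snai1) with DESeq2 (3.52%) and with 2 libraries per group (4.18%). With a library left out it gave 0 to 1 (1 without KOBLM 2, 1.23%). The interaction gave 0 with the replicate block (1.85%), 2 (Acta2 and S100a4, 4.79%) with DESeq2 and 3 (with Snai1, 6.22%) with 2 libraries per group. With a library left out it gave 0 to 2 (2 without BLM 3, 4.63%). No pairing by replicate number is given in the sources used here, and 4 of 12 libraries matched their own number best. With the replicate block the sign changed for Zeb2 (-0.11 in BLM against Con, 0.34 in KOBLM against KO, 0.45 for the interaction), Snai1 (0.44 in KOBLM against BLM) and Acta2 (0.22 in KOBLM against KO). Library size alone gave -0.04 for Zeb2 in BLM against Con. With 2 libraries per group it changed for Cdh2 (-0.73 in BLM against Con, 1.62 for the interaction), Zeb1 (0.19 in BLM against Con), Vim (0.14 in KO against Con) and Acta2 (0.44 in KOBLM against KO). Leaving out 1 library changed the sign within these ranges. In BLM against Con they were -0.12 to 8.48 for Cdh2, -1.80 to 1.91 for Snai1, -1.06 to 0.42 for Zeb1 and -0.52 to 0.59 for Zeb2. In KOBLM against BLM they were -0.60 to 3.59 for Cdh2, -1.49 to 1.16 for Snai1, -1.58 to 1.13 for Zeb1 and -0.02 to 1.09 for Zeb2. In KO against Con it was -0.40 to 0.04 for Vim. In KOBLM against KO they were -1.07 to 2.36 for Cdh2, -0.31 to 2.11 for Zeb1, -0.47 to 0.38 for Zeb2 and -0.62 to 0.47 for Acta2. For the interaction they were -8.08 to 0.52 for Cdh2, -0.13 to 2.58 for Zeb1 and -0.70 to 0.42 for Zeb2. The cause of these shifts was not tested. Values below the floor of 3 counts limit Snai2, Twist1, Snai1 and Cdh2.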
